A study of Mus musculus with 2 samples.

Results

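The peaks described here are the p300-bound regions around the homeobox genes Meis1 and Meis2 in the mouse embryo. A listed peak was a member when its midpoint fell between 18.4 and 19.3 Mb of chromosome 11 for Meis1 or between 115.2 and 116.3 Mb of chromosome 2 for Meis2, both in the mouse build mm9. That gave 22 of the 6383 listed peaks, which were 14 of the 3597 heart peaks and 8 of the 2786 midbrain peaks. The Meis1 window held 7 heart and 5 midbrain peaks, and the Meis2 window held 7 heart and 3 midbrain peaks. The loci were chosen by the listed peaks they hold, so the peak lists, and the reads of both libraries on which those lists rest, are a description of the members and not a test of them.

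Chromatin bound by p300 was precipitated from the heart and the midbrain of mice of the CD-1 strain, dissected at embryonic day 11.5, with the same p300 antibody in both tissues. Each tissue gave 1 library, from a pool of about 150 embryos of mixed sex, so the libraries carry no replicate error and statements about a tissue are statements about its library. The labels name no genetic change and no treatment, and no RNA was measured, so the levels of the Meis genes and of tissue markers are not known from these files. A pool of a whole tissue mixes cell types, and fewer cells with a bound site cannot be told apart from weaker binding in each cell.

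MEIS proteins are homeodomain transcription factors of the TALE class, which bind DNA together with PBX and HOX partners. In the mouse, Meis1 takes part in heart development and in the arrest of the heart muscle cell cycle after birth, and in the chick Meis2 takes part in the formation of the optic tectum, the roof of the midbrain. p300 is a histone acetyltransferase and coactivator that many transcription factors bring to active enhancers, which may lie far from the gene they act on.

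The start regions of both genes are shown because they are the only sequences of these loci that the reference tables hold. They come from RefSeq on the minus strand of GRCm38.p6, a later build than mm9, so they were not placed against the peaks. Each runs 5′ to 3′ over 250 bases before and 50 bases after the annotated start, and capitals mark the CG dinucleotides.
Meis1: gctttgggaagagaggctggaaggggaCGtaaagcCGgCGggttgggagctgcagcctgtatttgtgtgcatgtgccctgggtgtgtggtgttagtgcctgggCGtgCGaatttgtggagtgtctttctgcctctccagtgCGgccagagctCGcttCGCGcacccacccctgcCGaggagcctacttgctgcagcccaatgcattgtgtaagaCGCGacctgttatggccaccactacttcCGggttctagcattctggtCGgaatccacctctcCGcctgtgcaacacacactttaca
Meis2: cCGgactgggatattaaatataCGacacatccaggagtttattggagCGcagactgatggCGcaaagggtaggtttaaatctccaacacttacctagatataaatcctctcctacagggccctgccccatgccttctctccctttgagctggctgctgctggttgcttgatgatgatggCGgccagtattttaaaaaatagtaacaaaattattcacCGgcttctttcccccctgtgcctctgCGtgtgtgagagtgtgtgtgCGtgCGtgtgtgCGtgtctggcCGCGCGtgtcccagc
The Meis1 promoter held 15 CG dinucleotides and 58.3% G or C, and the Meis2 promoter held 13 CG dinucleotides and 51.0% G or C. The median over all 32851 promoters of the table was 7 CG dinucleotides and 52.7% G or C, so both had more CG dinucleotides than the median promoter. Both strands were searched for the MEIS motif TGACAG, the PBX-HOX motifs TGATTGAT and TGATTAAT, AGATAA of the GATA factors, AGGTGT of the Tbx family, the SOX motif ACAAT, the E-box motif CAGCTG and the homeobox motif TAATTA. None of these motifs overlaps another in these 2 sequences, since the only match was 1 ACAAT in the Meis1 promoter, at position -47 from the start. It lies on the opposite strand and reads attgt in the sequence as printed. ACAAT stood in 31.0% of all promoters of that length, TGACAG in 19.2%, CAGCTG in 16.3%, AGGTGT in 13.7%, AGATAA in 11.2%, TAATTA in 5.29%, TGATTGAT in 0.746% and TGATTAAT in 0.700%. A match is a run of letters and not a bound site.

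Aligned reads numbered 1303861 for the heart and 5869671 for the midbrain. Scaled to the size of its library (rpm), a heart read counts as 0.767 rpm and a midbrain read as 0.170 rpm. A count of 0 allows up to 3 reads, or 2.30 rpm for the heart library against 0.511 rpm for the other. Reads per peak were few in the heart, and each ratio between the libraries therefore carries an exact 95% interval. All intervals and floors cover counting error only, because each tissue has 1 library. Reads repeated at a position and strand had been collapsed before deposit. The reads carry no molecular identifier, so whether all stem from independent molecules is not known. The peak lists give a rank for each peak, with 1 the best, and no height.

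The Meis1 window was denser in peaks of both lists than the genome. It held 7.78 heart and 5.56 midbrain peaks per Mb, against 1.36 and 1.06 per Mb over the whole lists. The Meis2 window held 6.36 heart and 2.73 midbrain peaks per Mb. Density was what drew attention to these loci, so these values describe the choice.

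**Figure D1:**
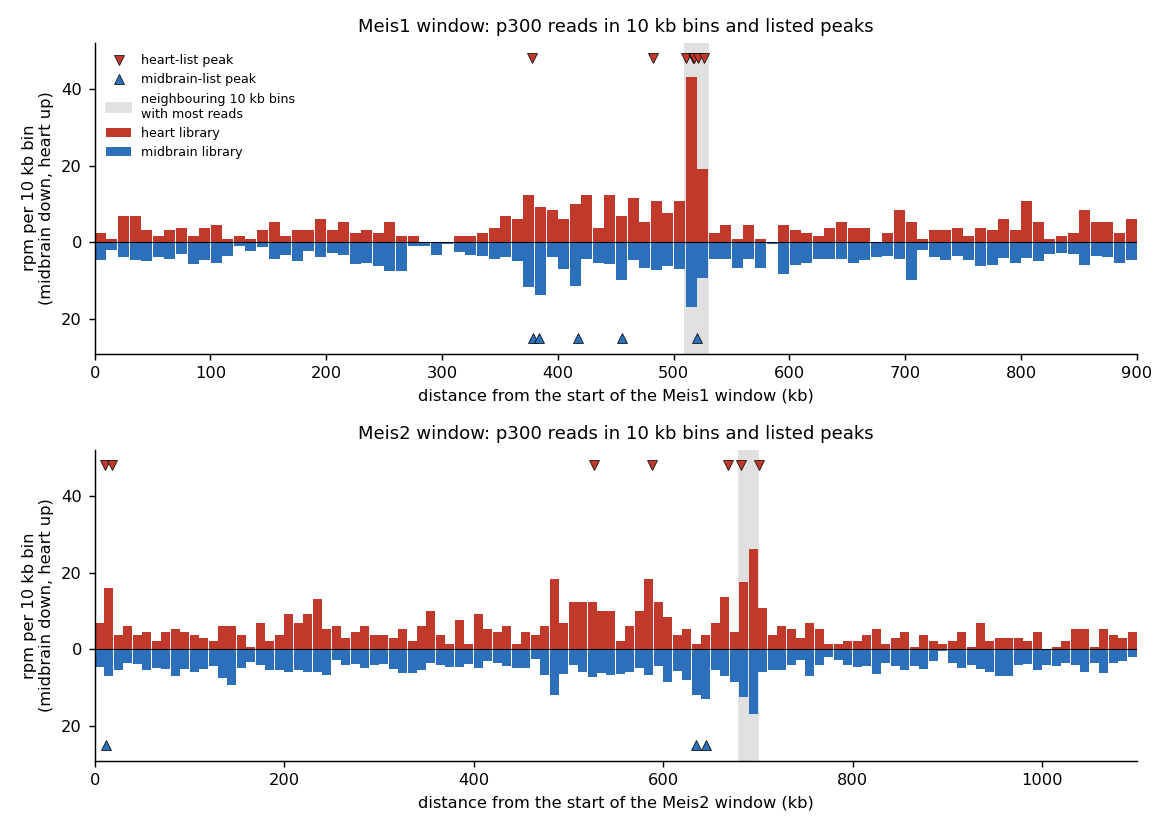
Listed peaks and read density along the Meis1 and Meis2 windows, with distance from the window start in kb on the x axis and rpm per 10 kb bin on the y axis, heart drawn up and midbrain down. Triangles mark listed peaks and grey the pair of neighbouring 10 kb bins with the highest summed rpm of both libraries. All 12 Meis1 peaks lie within 149.3 kb, and the Meis2 peaks fall into separate clusters.

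All 12 Meis1 peaks formed a single run in which each midpoint lay within 50 kb of the next, from 18777560 to 18926892 on chromosome 11, a span of 149.3 kb. Peaks of both lists were interleaved along it. From the window start came a heart peak, 4 midbrain peaks, 4 heart peaks, a midbrain peak and 2 more heart peaks. The peaks are numbered below in that order within each list.

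The best-ranked heart peak of the Meis1 window was heart peak 1 at chr11:18777560-18778337, ranked 881 of the heart list. It held 7 heart and 8 midbrain reads, or 5.37 rpm against 1.36 rpm, which put the heart library 3.94 times higher (95% interval 1.22 to 12.4). Heart peak 6 at chr11:18920226-18921012, ranked 1129, held 7 heart and 12 midbrain reads, a heart-over-midbrain value of 2.63 (0.876 to 7.23). These were the Meis1 heart peaks with the most heart reads, and the interval lay above 1 for the first alone.

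Heart peak 3 at chr11:18910243-18910574, ranked 2524, held 3 heart and 2 midbrain reads, a ratio of 6.75 (0.774 to 80.8). Heart peak 5 at chr11:18917106-18917381, ranked 2687, was 276 bp wide with 2 reads of each library, a ratio of 4.50 (0.326 to 62.1). Heart peak 2 at chr11:18882134-18882808, ranked 3142, held 5 reads of each library, a ratio of 4.50 (1.04 to 19.6). Equal read counts stand for unequal levels here because the midbrain library was the deeper. The remaining heart peaks 4 and 7 held 5 heart reads each, with ratios of 2.81 and 3.75 and intervals that included 1.

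All 7 Meis1 heart peaks thus had a higher level in the heart than in the midbrain, and for 2 of 7 the interval lay above 1. Over the whole heart list the share was 90.0%, and since the lists were made from these reads nothing is read from the difference. The count of 2 moved with how reads were placed. It was 5 with a shift of 150 bp, 1 with the midbrain library thinned to the depth of the heart, and 0 with peaks set to 1 kb or with every lengthened read that touched a peak counted.

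**Figure D2:**
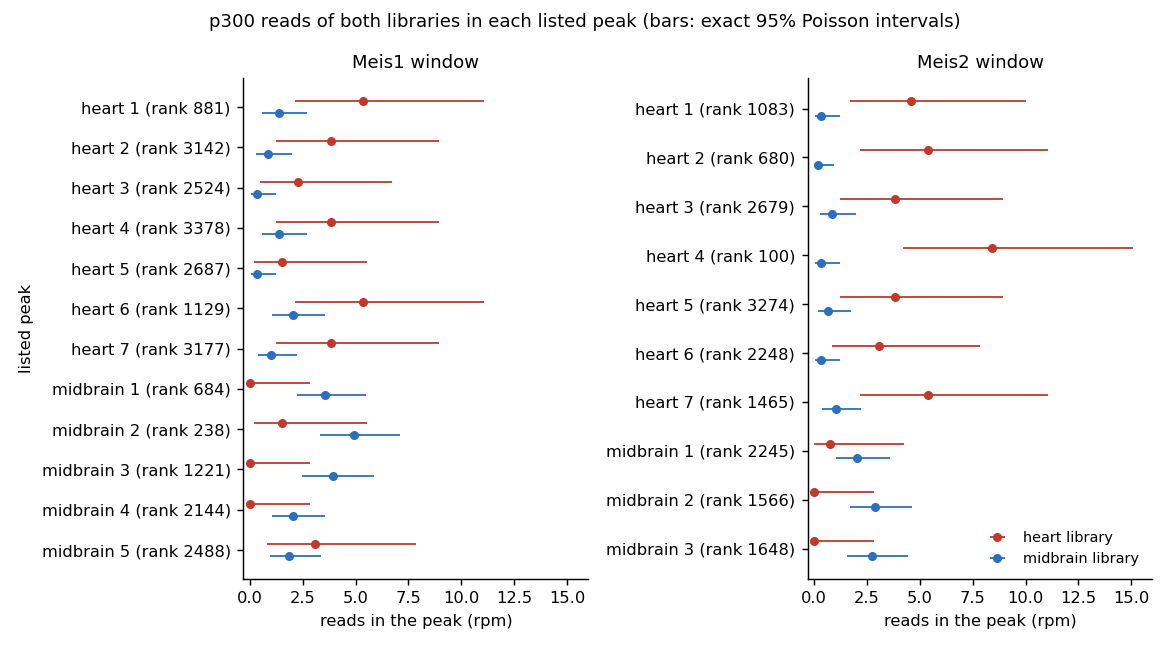
Reads of each member peak in rpm, on the x axis, with a red point for the heart and a blue point for the midbrain library and exact 95% Poisson intervals as bars, for the 22 peaks by window and list. Midbrain peak 5 of Meis1 is the midbrain-list peak with the higher level in the heart library, 3.07 rpm against 1.87 rpm.

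Among the Meis1 midbrain peaks, peak 2 at chr11:18783015-18783857 was the best ranked, at 238 of the midbrain list. It held 29 midbrain and 2 heart reads, so that the midbrain library was 3.22 times higher (0.815 to 27.9). Peak 1 at chr11:18778214-18779001, ranked 684, held 21 midbrain reads and no heart read, and its midbrain level was 1.55 times the heart floor. That value leaves out the counting error of the midbrain reads. By the exact interval the midbrain library was at least 1.16 times higher. Peak 3 at chr11:18816739-18817987, ranked 1221 and 1249 bp wide, held 23 midbrain reads and no heart read. Its midbrain level was 1.70 times the heart floor, and by the exact interval at least 1.28 times the heart level.

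Those 3 peaks had the most midbrain reads of the window's peaks, and peaks 1 and 3 were those called on the midbrain side. Peak 4 at chr11:18855031-18855528, ranked 2144, held 12 midbrain reads and no heart read, and at that depth no difference was detectable. Peak 5 at chr11:18920143-18920592, ranked 2488, went the other way, with 11 midbrain and 4 heart reads, 1.64 times higher in the heart library (0.380 to 5.52). For 2 of 5 Meis1 midbrain peaks the interval lay on the midbrain side, against 21.6% over the whole midbrain list, and again the rule rests on the same reads. The count was 0 with peaks of 1 kb and 1 under the other 3 read-counting alternatives. Peak 1 had no heart read as placed here and 3 to 4 under other placements.

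Heart and midbrain peaks overlapped in the Meis1 window alone, and in the Meis2 window a pair only adjoined. In the Meis1 window, heart peak 1 and midbrain peak 1 overlapped by 124 bp with midpoints 659 bp apart, and heart peak 6 and midbrain peak 5 overlapped by 367 bp with midpoints 252 bp apart. So 2 of 7 heart peaks (28.6%) and 2 of 5 midbrain peaks (40.0%) were shared, against 4.28% and 5.56% of the whole lists. Since the loci were chosen by the peaks they hold, nothing is read from the difference. No pair overlapped by 50% of both peaks, and the count was then 0 in both lists.

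The highest coverage of the heart library and that of the midbrain library stood 150 bp apart over the first pair and 400 bp apart over the second. The union of the first pair held 7 heart and 26 midbrain reads, 1.21 times higher in the heart library (0.444 to 2.87). The union of the second held 7 heart and 13 midbrain reads, a ratio of 2.42 (0.819 to 6.54). Neither interval excluded 1, so a difference between the libraries over the shared stretches was not detectable at this depth.

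In the Meis2 window no peaks overlapped, but heart peak 1 and midbrain peak 1 lay 185 bp apart. Together they held 8 heart and 15 midbrain reads, a ratio of 2.40 (0.882 to 6.03). Their coverage maxima stood 878 bp apart, farther than in either Meis1 pair.

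**Figure D3:**
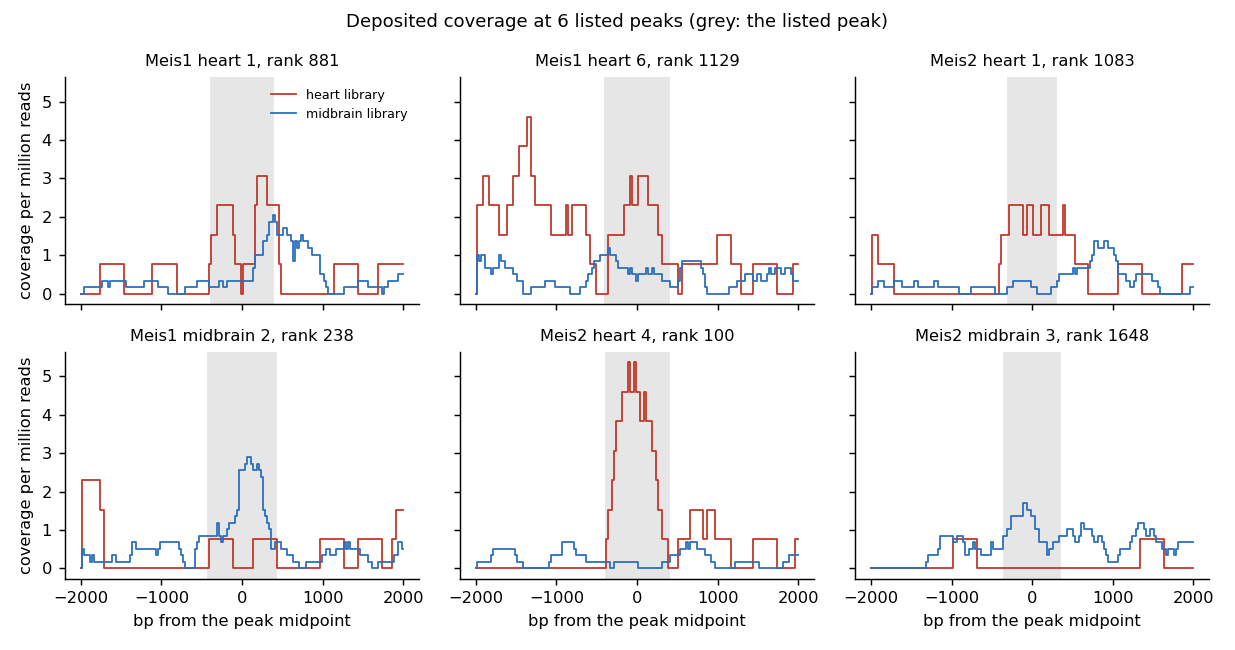
Deposited coverage, scaled to library size in rpm on the y axis, against distance in bp from the peak midpoint, for 6 listed peaks shaded in grey (heart library red, midbrain library blue). The top panels are the heart peaks that overlap or adjoin a midbrain peak, and Meis2 heart peak 4 below them has the highest heart coverage within a peak.

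The Meis2 heart peaks were ranked better and were more strongly tilted to the heart library. Heart peak 4 at chr2:115788340-115789120 was ranked 100 and held 11 heart and 2 midbrain reads, which is 8.44 rpm against 0.341 rpm, a ratio of 24.8 (5.40 to 230). Heart peak 2 at chr2:115217524-115218180, ranked 680, held 7 heart reads and 1 midbrain read, a ratio of 31.5 (4.05 to 1420). Heart peak 1 at chr2:115210650-115211243, ranked 1083, held 6 heart and 2 midbrain reads, a ratio of 13.5 (2.42 to 137). These 3 peaks had at most 2 midbrain reads from a library with over 4 times the depth.

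Heart peak 7 at chr2:115901240-115902145, ranked 1465, held 7 heart and 6 midbrain reads, a ratio of 5.25 (1.51 to 18.9). Heart peak 6 at chr2:115881624-115881992, ranked 2248, held 4 heart and 2 midbrain reads, a ratio of 9.0 (1.29 to 99.5). Heart peaks 3 and 5, ranked 2679 and 3274, held 5 heart reads each with ratios of 4.50 and 5.63. The interval lay above 1 for 7 of 7 Meis2 heart peaks. The share over the whole heart list was 90.0%, so 7 of 7 is near the background. The count was 6 with reads that touch a peak, 5 with peaks of 1 kb and 2 with the midbrain library thinned to the depth of the heart.

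The Meis2 midbrain peaks held 12, 17 and 16 reads and ranked 2245, 1566 and 1648, all in the worse-ranked part of their list. Midbrain peak 1 at chr2:115211429-115212005 held 1 heart read and was 2.67 times higher in the midbrain library (0.394 to 114). Midbrain peaks 2 and 3, at chr2:115834799-115835558 and chr2:115845266-115845969, held no heart read. Their midbrain levels were 1.26 and 1.18 times the heart floor, without the counting error of the midbrain reads. That floor is a one-sided limit and less strict than the two-sided interval, which excluded 1 for 0 of 3 peaks. All 3 peaks leaned to the midbrain, with 45 midbrain reads in all against 1 heart read.

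**Figure D4:**
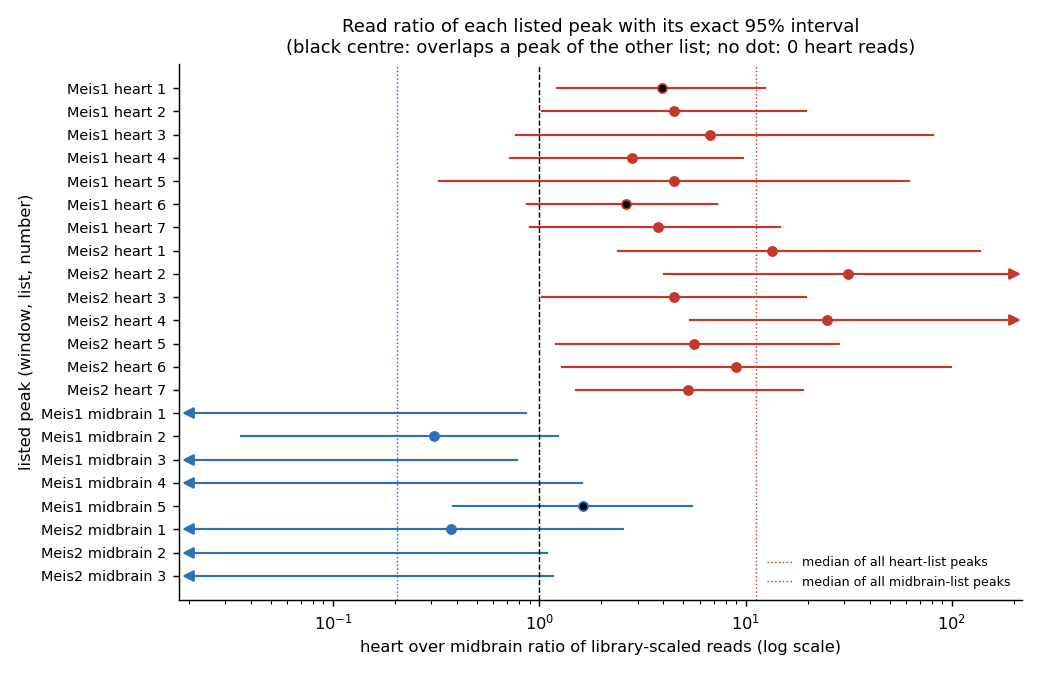
Heart-over-midbrain ratio of library-scaled reads for each member peak on a log axis, with exact 95% intervals as bars, arrows where an interval runs off the axis, no point where no heart read was counted, and dotted lines at the medians of the whole lists. The Meis2 heart peaks lie between 4.50 and 31.5 and the Meis1 heart peaks between 2.63 and 6.75.

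Pooled over peaks, the heart-list peaks of Meis1 had 34 heart and 43 midbrain reads, a ratio of 3.56 (2.20 to 5.71). Those of Meis2 had 45 heart and 22 midbrain reads, a ratio of 9.21 (5.42 to 16.1), and the whole heart list had 7.95 (7.78 to 8.13). The Meis1 interval lay below the value of the whole list and the Meis2 interval included it. The Meis1 run was known to hold peaks of both lists when the loci were chosen, so nothing is read from this contrast. With peaks set to 1 kb the pooled ratio was 2.34 (1.55 to 3.47) at Meis1 and 5.69 (3.64 to 8.94) at Meis2, and with reads that touch a peak it was 2.49 (1.61 to 3.80) and 5.75 (3.64 to 9.16). The whole list was not recomputed under these settings. The median ratio per peak was 3.94 at Meis1, 9.0 at Meis2 and 11.3 over the heart list.

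The heart peaks of the 2 loci differed in their pooled midbrain reads when set against the window. Relative to the window outside all listed peaks, heart reads were enriched 13.5-fold (9.32 to 18.8) in the Meis1 heart peaks and 14.1-fold (10.3 to 18.9) in the Meis2 heart peaks. Midbrain reads were enriched 3.64-fold (2.63 to 4.90) in the Meis1 heart peaks, above the window level in 7 of 7. In the Meis2 heart peaks midbrain reads were enriched 1.55-fold (0.973 to 2.35), above the window level in 5 of 7. For single peaks the interval of this enrichment included 1 at Meis1 heart peaks 2, 3 and 5 and at every Meis2 heart peak. Of the 43 midbrain reads in Meis1 heart peaks, peaks 1 and 6, which overlap midbrain peaks, held 8 and 12.

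In the midbrain peaks the counts of heart reads were too few to tell the loci apart. Midbrain reads were enriched 9.04-fold (7.32 to 11.03) in the Meis1 midbrain peaks and 7.17-fold (5.23 to 9.59) in those of Meis2. Heart reads were at 2.64 times the window level (0.969 to 5.74) in the Meis1 midbrain peaks, from 6 reads in 2 of 5 peaks, and at 0.709 times (0.018 to 3.95) in those of Meis2, from 1 read.

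Read counts next to the peaks also differed between the loci. In the flanks from 5 to 10 kb on either side, the Meis1 heart peaks had a median of 29 heart reads. The Meis2 heart peaks had 12 and the whole heart list 8. Listed peaks were not left out of the flanks. Meis1 heart peaks 3 to 7 lie so close that their flanks overlap and hold one another's peaks. Flank counts at Meis1 are therefore neither independent of each other nor free of listed peaks. The midbrain library had a median of 70 reads in the flanks of the Meis1 heart peaks and 46 in those of the Meis2 heart peaks, against 26 over the list. Single Meis1 heart peaks stood at 0.825 to 2.15 times their flanks in the midbrain library, and single Meis2 heart peaks at 0.331 to 2.03 times. The excess of midbrain reads that the Meis1 heart peaks had against the window was thus smaller against the flanks. Set against these flanks instead of the window, the heart enrichment was 3.09-fold at Meis1 and 6.22-fold at Meis2. The enrichment of the midbrain peaks was then 5.34-fold at Meis1 and 5.21-fold at Meis2.

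Over whole windows the intervals of the ratio included 1. The Meis1 window had 566 heart and 2603 midbrain reads, or 434 and 443 rpm, a ratio of 0.979 (0.892 to 1.07). The Meis2 window had 802 and 3429 reads, or 615 and 584 rpm, a ratio of 1.05 (0.974 to 1.14). Most reads lay outside the listed peaks. Own-list peaks of the Meis1 window held 6.01% of its heart and 3.69% of its midbrain reads, and those of the Meis2 window held 5.61% and 1.31%.

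Within the Meis1 window the ratio was not even. In the run between the listed peaks, heart reads were at 3.25 times (2.82 to 3.73) and midbrain reads at 1.68 times (1.55 to 1.82) their density in the rest of the window. The heart-over-midbrain ratio was 1.52 (1.29 to 1.78) between the peaks of the run and 0.784 (0.695 to 0.883) in the rest of the window. Over genome tiles as long as the whole window, described below, the median ratio was 0.952, with quartiles of 0.744 and 1.18. The value of 0.784 lay between those quartiles, and no tiles as short as the run were counted. Between the peaks of the longer Meis2 run, which spans 113.8 kb, heart reads were at 1.90 times (1.59 to 2.25) and midbrain reads at 1.81 times (1.66 to 1.97), with a ratio of 1.05.

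The densest pair of neighbouring 10 kb bins lay at the end of the Meis1 run. This stretch of 20 kb, chr11:18910001-18930000, chosen on the fixed grid of bins after the values were seen, held 81 heart and 154 midbrain reads. Heart density there was 7.35 times (5.84 to 9.13) and midbrain density 2.77 times (2.35 to 3.24) the rest of the window, and the ratio was 2.37 (1.79 to 3.12). It held 14.3% of the heart reads of the window in 2.22% of its length, with 5 heart peaks and 1 midbrain peak. Listed peaks took up 27.2% of its heart reads (17.9 to 38.2), and outside them the ratio was 2.16 (1.56 to 2.97). Most unlisted heart reads of the window lay elsewhere, since the stretch held 59 of 530.

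Without that stretch the ratio of the Meis1 window was 0.892 (0.807 to 0.983). The stretch was chosen after its values were seen, and its own ratio of 2.37 lay above that of the window. Leaving it out could thus only lower the window ratio, and nothing is read from an interval below 1. The run between the peaks, with 145 of its 201 unlisted heart reads, was still denser without the stretch. The heart stood at 2.60 times and the midbrain at 1.51 times, with a ratio of 1.35 (1.11 to 1.63). The densest 10 kb bin of the stretch, chr11:18910001-18920000, had 56 heart reads, against a median of 4 over all bins of the genome. As many heart reads stood in 31 of 253027 bins (0.0123%), and 7 of those 31 held a listed heart peak.

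**Figure D5:**
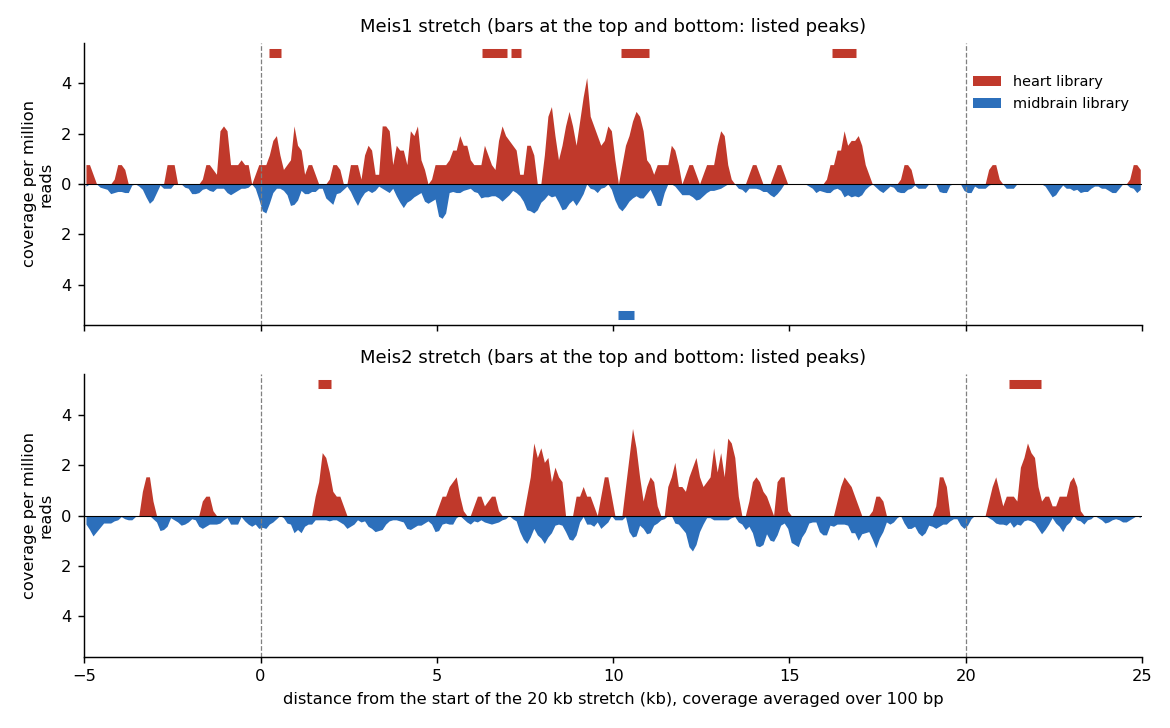
Deposited coverage scaled to library size (rpm, y axis, heart up and midbrain down, averaged over 100 bp) against distance in kb from the start of the pair of neighbouring 10 kb bins with the highest summed rpm in each window, whose ends are dashed lines. Bars mark listed peaks, and in the Meis1 stretch the highest heart coverage lies between them.

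In the Meis2 window the corresponding stretch, chr2:115880001-115900000, held 57 heart and 172 midbrain reads. Both libraries were raised there, the heart at 4.13 times (3.13 to 5.35) and the midbrain at 2.85 times (2.44 to 3.31) the rest of the window. The ratio was 1.49 (1.09 to 2.02). It held 1 listed heart peak and no midbrain peak, and listed peaks took up 7.02% of its heart reads and 1.16% of its midbrain reads.

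The Meis2 peaks were spread over 691 kb in separate clusters. A cluster at the window start held heart peaks 1 and 2 and midbrain peak 1, and joined a heart peak just outside the window, chr2:115180908-115181688. That peak lay 18.7 kb outside the edge, with rank 3519 and 5 heart reads and 1 midbrain read, while heart peak 1 lay 10.9 kb inside it. Heart peak 3 stood alone, and the longer run from 115788340 to 115902145 held heart peaks 4 to 7 and midbrain peaks 2 and 3. The nearest listed peaks outside the other edges lay at least 197 kb away.

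A peak of the other list lay within 50 kb of all 12 Meis1 peaks and of 5 of 7 heart and 3 of 3 midbrain peaks of Meis2. Over the whole lists this held for 19.2% of heart and 23.9% of midbrain peaks. The Meis1 run was known to hold peaks of both lists when the loci were chosen, so this contrast describes the choice. Of 462 runs with at least 3 peaks, 231 held peaks of both lists, and 9 of these had at least as many peaks as the Meis1 run, which counts itself. The next heart peak before the Meis1 run lay 6.84 Mb away, a gap that 41 of 3577 gaps in the heart list reached, and the next one after it lay 939.8 kb away, which 649 gaps reached.

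Tiles of the same length as each window, laid along the autosomes and the X chromosome, gave the loci most like these. Of 2851 tiles the length of the Meis1 window, 6 had at least 7 heart and 5 midbrain peaks, and of 2341 tiles the length of the Meis2 window, 32 had at least 7 heart and 3 midbrain peaks. The tiles nearest to Meis1 in peak counts were chr1:170100001-171000000 with 7 heart and 6 midbrain peaks, chr17:9900001-10800000 with 6 and 5, and chr2:59400001-60300000 with 7 and 4. Those nearest to Meis2 were chr14:119900001-121000000, chr10:97900001-99000000 and chr15:37400001-38500000, each with 7 heart and 3 midbrain peaks. The read level of the Meis1 window was above 93.3% of its tiles in the midbrain and 71.9% in the heart, and that of the Meis2 window above 97.9% and 88.0%.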

How the data were processed

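p300 binding was measured by ChIP-seq in 1 heart and 1 midbrain library. The authors deposited aligned reads on build mm9, which the submitters' processing notes and the file headers name, as positions lengthened to 300 bp with a score of 1 per read. The coverage signal they deposited is in 25 bp steps and is not scaled to depth, per the file headers. The deposited peak lists give a rank and no height. The peak caller and any control are not given in the sources used here; the word blat stands in the heart track names, per the file headers.

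No position and strand repeated, so repeats had been collapsed before deposit. Reads were placed by moving their 5′ ends 49 bp (heart) or 33 bp (midbrain), from strand offsets of 97.75 and 66.5 bp within peaks. Both offsets lie below the size range cut from the gel, 300 to 500 bp, and below the deposited read length of 300 bp. A shift of 150 bp was therefore kept beside them as an alternative, and which placement is nearer the true fragments was not tested. Reads were scaled to rpm of all aligned reads (1303861 and 5869671). Ratios carry exact conditional binomial, densities exact Poisson and shares Clopper-Pearson 95% intervals; fold intervals cover the numerator count alone. A peak was called on a side when its ratio interval excluded 1. With 1 library per tissue there is no test and no p-value. Overlap needed 1 bp, and runs joined midpoints within 50 kb. The tools were scipy 1.17.1, numpy 2.4.6, pandas 2.3.3 and matplotlib 3.10.9 under Python 3.11.15. The interval of the ratio was tested on simulated read counts, and the placing of reads was not.

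The members and lists were chosen with earlier results of these data known. Per window and list, the 5 best-ranked peaks, shared peaks and those next to a window edge were named; other members described singly were chosen after their values were seen. Alternatives covered read placement, peak width, thinning, overlap, gap and window limits. Genes of the TALE family, positions relative to exons and motifs in peaks were not analysed here, since no genome or annotation of mm9 was used.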

Additional observations from a re-analysis of the deposited data

Results flagged for a closer look

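Deposited coverage outside all listed peaks, with a margin of 300 bp, rose above the limit that a count of 0 allows in both windows and both libraries. In the Meis1 window heart coverage reached 6 at chr11:18919263-18919312, where 500 bp held 7 heart and 2 midbrain reads. The listed heart peaks of that window reached at most 4. Midbrain coverage outside peaks reached 9 at chr11:18915038-18915062, with 2 heart and 8 midbrain reads. In the Meis2 window heart coverage outside peaks reached 5, first at chr2:115890563-115890637 with 5 reads of each library, and midbrain coverage reached 9, first at chr2:115682113-115682137 with 0 heart and 8 midbrain reads. In the Meis1 window 22 unlisted sites reached the median top coverage of the listed heart peaks, which was 3, and in the Meis2 window 3 sites reached the median of 4.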

How the results depend on the processing

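Of 96 alternatives for the values that answer a comparison, 69 kept their result. They kept their direction and their side of 1, or stayed within their counting interval or, for counts, within 1.5 times. Of 110 for single peaks none turned direction, but 18 lost a call on a side and 4 gained one. The other 88 stayed called or uncalled as before. In the better-ranked part of each list the peak counts were 2 heart and 3 midbrain at Meis1 and 4 heart and 0 midbrain at Meis2. With 50% reciprocal overlap the shared peaks of Meis1 were 0 in the heart and 0 in the midbrain list, and with a distance of 1 kb those of Meis2 were 1 and 1. A gap of 25 kb left a Meis1 run of 6 peaks. Over the flanks, from which listed peaks were not left out, enrichment was 3.09 (heart) and 5.34 (midbrain) at Meis1. At Meis2 it was 6.22 and 5.21. Moved up by 5 kb, the Meis1 stretch stood at 5.31 times the rest for the heart and 2.20 for the midbrain, moved down 7.45 and 2.81, and the Meis2 stretch moved up 4.76 for the heart, so the bin grid does not give the densest 20 kb; without the stretch the window ratio was 0.892. Peaks called among the Meis1 heart peaks were 5 (shift of 150 bp), 0 (1 kb peaks), 1 (thinned) and 0 (reads touching); among the Meis1 midbrain peaks 1, 0, 1 and 1. They were 2 of the Meis2 heart peaks when thinned and 1 of the Meis2 midbrain peaks with reads touching. Among those 69, pooled heart-over-midbrain ratios still moved by over 1.5 times. With 1 kb peaks they were 2.34 for the heart and 0.474 for the midbrain peaks of Meis1 and 5.69 and 0.270 for those of Meis2, and with reads touching 0.485 for the midbrain peaks of Meis1 and 5.75 and 0.177 for those of Meis2, against 3.56, 0.281, 9.21 and 0.100. Thinned, the pooled heart-over-midbrain ratio of the Meis2 midbrain peaks was 0.143 (0.003 to 1.11). Leaving out the stretch, moving it, giving it a shift of 150 bp, and counting reads that touch were chosen after seeing the data. The causes were not tested, beyond the fewer midbrain reads that thinning leaves. Depth limits the heart counts, at 2 to 11 reads per heart peak. No paired analysis was possible because each tissue has 1 library.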
